A study of Homo sapiens with 7 samples.

Results

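The cyclins and cyclin-dependent kinases that carry a cell from G1 into S phase were followed in a human melanoma line after knockdown of the long non-coding RNA GRASLND. The set was chosen by name and held 10 genes, namely the kinases CDK2, CDK4 and CDK6, the D-type cyclins CCND1, CCND2 and CCND3, the E-type cyclins CCNE1 and CCNE2, cyclin A2 (CCNA2) and the phosphatase CDC25A. Of these 10, 9 were found among the 21305 genes of the expression table, and all 9 passed the minimum mean level for testing. CCND2 was not analysed here. The cells were 501Mel, a line with a melanocytic character, and every library came from cells treated with doxycycline to switch on a short hairpin RNA. The hairpin was directed against bacterial lacZ in the control (shlacZ, n = 3) and against GRASLND in the others (sh4, n = 2, and sh8, n = 2). Each hairpin was carried by a stable line, a puromycin-selected pool of cells transduced with a lentivirus, so a difference between hairpins is also a difference between pools.

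D-type cyclins bind CDK4 and CDK6 in early G1, and these complexes begin to phosphorylate the retinoblastoma protein, which otherwise holds E2F factors in check. CDK2 with cyclin E completes this step and, with cyclin A, drives DNA replication, while CDC25A removes the phosphates that hold CDK2 inactive. In cells of the melanocyte lineage CDK2 is also known as a target of MITF, the lineage factor, since the gene lies head to head with the pigment cell gene PMEL.

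The 7 libraries held 13337317 to 22855232 reads. Nothing in the labels says that libraries of a group came from separate cultures, so the tests measure the spread between these libraries, which may be technical. Within every pair of replicates the differences exceeded counting noise. Among the controls, library 1 stood apart, with a chi-square averaging 31.4 and 30.9 per gene against the others, which gave 9.32 between themselves. GRASLND itself had a normalized count of 309, 330 and 289.7 in the shlacZ libraries, 175 and 131 under sh4, and 227 and 163 under sh8. Every knockdown library was thus under every control. Its log2 fold change was -1.02 under sh4 (limma, Benjamini-Hochberg adjusted p = 0.00662, and 0.0772 without the second sh4 library) and -0.68 under sh8, where it did not pass the threshold of 0.05 (adjusted p = 0.110). All 10 melanocytic marker genes were detected, and of 10 markers of other cell types only CD68 and COL1A1 were in the table, with a summed normalized count of 458 to 683 per library against 62363 to 158045 for the melanocytic list. Neither of the pair passed the test in any comparison by limma, by limma-voom or at an unadjusted p under 0.05 (0 of 2).

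CDK2 and CDC25A, the kinase of late G1 and the phosphatase that activates it, were the members that fell when both hairpins were pooled against shlacZ (2 of 9 tested, adjusted p under 0.05). A call of this kind in the lower direction was made for 2.06% of all 15420 genes tested, and in the higher direction for 2.55%. Under sh4 alone 6 of the 9 fell, namely CDK2, CDC25A, CCNE1, CDK6, CCNA2 and CDK4, where 11.9% of all genes were called lower and 10.5% higher. Under sh8 alone CDK2 and CCND1 fell and CDK6 rose, beside 1.54% and 1.38% of all genes called lower and higher. The median log2 fold change of the 9 members was -0.50 for both hairpins together, -0.56 for sh4 and -0.39 for sh8, with medians over all genes tested of -0.01 in each comparison. None of the 9 changed by more than 1 on the log2 scale against shlacZ. The pooled count was 0 when the third or the second shlacZ library was left out, 1 without the first sh4 library, and 3 without the first shlacZ or the first sh8 library. The sh4 count was 6 without the first shlacZ library, and 4 without the second or without the third. The sh8 count was 5 without the first shlacZ library, and 1 without the second or without the third. Each count also fell when either library of the hairpin itself was left out, which leaves 1 library in its group. The sh4 count fell as well without either sh8 library.

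**Figure D1:**
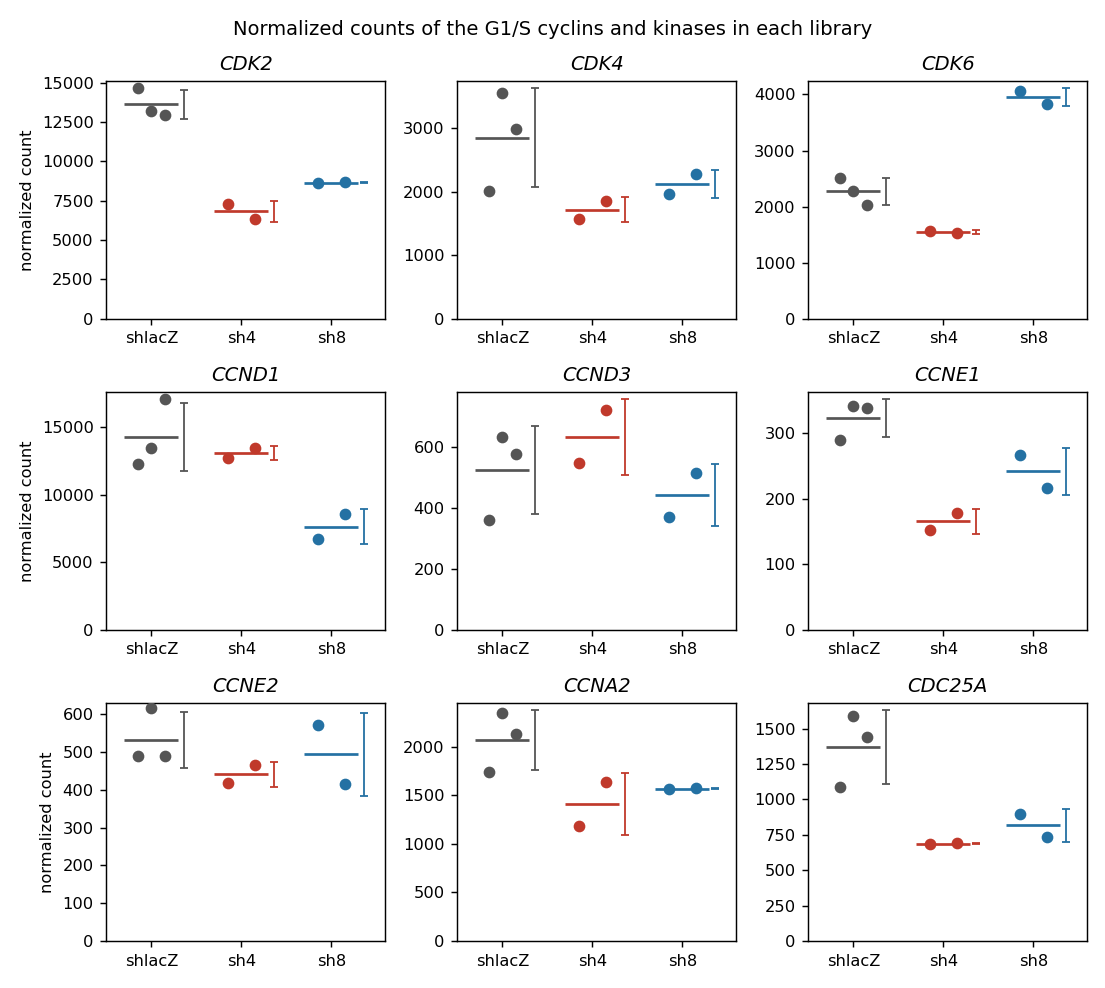
Normalized count (vertical axis, from 0) of each of the 9 G1/S genes in each library of shlacZ (3 points), sh4 (2) and sh8 (2), with the mean as a line and the SD as a bar beside it. CDK2, CCNE1, CCNA2 and CDC25A lie lower in all 4 knockdown libraries than in all 3 controls, and CDK6 lies lower under sh4 and higher under sh8.

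CDK2 (ENSG00000123374) is on the plus strand of chromosome 12, from 55966781 to 55972789 in hg38. Its normalized count was 14681, 13195 and 12973 in the shlacZ libraries, 7297 and 6363 under sh4, and 8640.3 and 8670.4 under sh8. All 4 knockdown libraries lay well under the lowest control, and the sh4 libraries lay under the sh8 libraries. The mean under sh4 was 50.2% of the control mean, which is -1.0 on the log2 scale (SE 0.12, adjusted p = 0.000485). The sh8 mean was 63.6% of it, which is -0.65 (SE 0.12, adjusted p = 0.0191). For both hairpins together the log2 fold change was -0.82 (95% interval -1.13 to -0.51, adjusted p = 0.0169). CDK2 was called under sh4 in 17 of 17 alternative settings, with an adjusted p between 0.000314 and 0.012. The pooled call was lost without the third or the second shlacZ library (adjusted p = 0.0662 and 0.0860), and the sh8 call was lost without either of these (0.0545 and 0.0621) or without either sh8 library (0.137 and 0.160). In bulk RNA, fewer cells in a given phase and less transcript per cell cannot be told apart, which holds for every member.

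PMEL, the fibril protein of melanosomes, lies on the opposite strand and was measured beside CDK2. Its annotated span (chromosome 12, 55954105 to 55973317) covers the whole of CDK2, but the exons of the pair share 89 bases, 2.29% of the exonic length of CDK2, through 1 of 19 PMEL transcripts. The normalized count of PMEL was 35872, 37928 and 36173 in the controls, 16968 and 13673 under sh4, and 22806 and 27295 under sh8. PMEL was also lower in every knockdown library than in every control, by -1.27 on the log2 scale for sh4 (adjusted p = 0.000337) and by -0.55 for sh8 (adjusted p = 0.0671, and 0.0364 without the first shlacZ library). The ratio of CDK2 to PMEL was 0.41, 0.35 and 0.36 in the controls, 0.43 and 0.47 under sh4, and 0.38 and 0.32 under sh8, so that both sh4 libraries lay above the controls and one sh8 library lay below them. MITF had a normalized count of 22076, 20552 and 17326 in the controls, 12619 and 11635 under sh4, and 19031 and 17418 under sh8. It fell under sh4 (log2 fold change -0.71, adjusted p = 0.00483, and 0.0567 without the second sh4 library), and its sh8 value lay within the range of the controls (log2 fold change -0.13, adjusted p = 0.658). The part of MITF in the level of CDK2 was not tested.

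PMEL was the single gene around CDK2 that was called lower in any comparison. Of 11 genes listed around CDK2, 10 were tested (MMP19 was not analysed here), and their median log2 fold change was 0.30 under sh4 and 0.17 under sh8. Under sh4 1 of the 10 was called lower and 2 higher, beside 11.9% and 10.5% of all genes tested. For both hairpins together 1 of the 10 was called lower, beside 2.06% of all genes. On the PMEL side DGKA, a diacylglycerol kinase, rose under sh4 from 28.9, 11.5 and 18.3 in the controls to 59.9 and 54.5 (log2 fold change 1.59, adjusted p = 0.0195). On the far side of CDK2, RAB5B, a GTPase of early endosomes, rose under sh4 (log2 fold change 0.51, adjusted p = 0.0289). The mean of RAB5B was 141% of the control mean under sh4 and 136% under sh8, where it was not called. RAB5B and IKZF4 lay over every control in all 4 knockdown libraries (2 of 10), and 10.2% of all genes did so. The sh4 calls of DGKA and RAB5B were lost without the second shlacZ library or without either sh4 library. For both hairpins together PMEL had a log2 fold change of -0.91 (adjusted p = 0.0443), and that call was lost without any one of the shlacZ or sh4 libraries and with quantile normalization (adjusted p = 0.0671). Under sh8 the count of calls at the locus was 0 of 10 by limma and by limma-voom, with 5 of 10 at an unadjusted p under 0.05, and 3 of 10 without the first shlacZ library. The other 7 genes, ORMDL2, DNAJC14, TMEM198B, SUOX, IKZF4, RPS26 and ERBB3, had adjusted p-values from 0.0918 to 0.938 under sh4 and from 0.0854 to 0.814 under sh8.

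**Figure D2:**
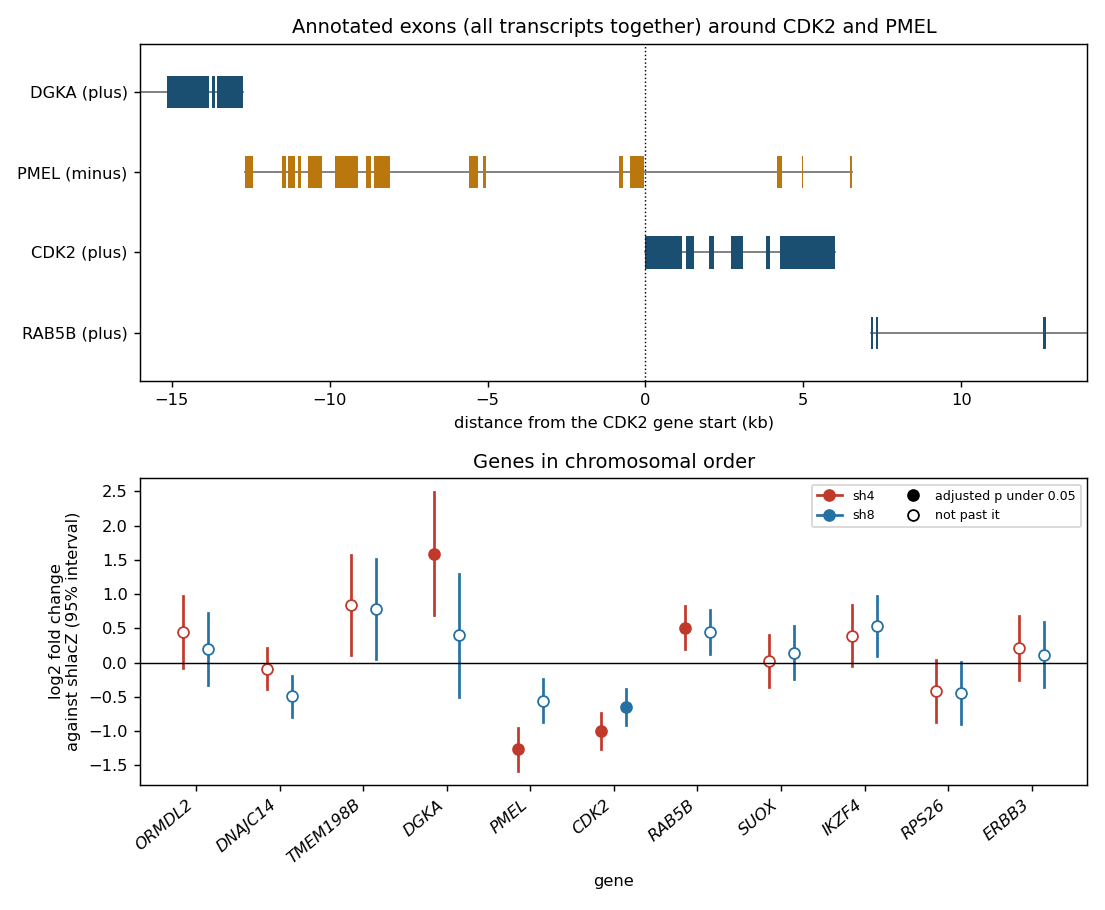
Upper panel, annotated exons of DGKA, PMEL, CDK2 and RAB5B as boxes by distance from the CDK2 gene start (kb), blue on the plus and orange on the minus strand. Lower panel, log2 fold change against shlacZ with its 95% interval for CDK2 and the 10 tested genes around it in chromosomal order (sh4 red, sh8 blue, filled where the adjusted p was under 0.05). CDK2 and PMEL have the lowest values of the row under sh4.

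CDC25A (ENSG00000164045; chromosome 3, 48157146 to 48188417, minus strand) had a normalized count of 1085, 1591 and 1439 in the controls, 683 and 691 under sh4, and 898 and 734 under sh8. The groups did not overlap, although the first control lay much nearer to the knockdown libraries than the other two controls did. The log2 fold change was -0.98 under sh4 (SE 0.17, adjusted p = 0.00362), -0.74 under sh8 (SE 0.17, adjusted p = 0.0540) and -0.86 for both hairpins together (SE 0.16, adjusted p = 0.0231). The sh4 call held in 17 of 17 alternatives. The sh8 value passed the threshold in 5 of 17 alternatives, without the first shlacZ library (adjusted p = 0.00493), with total scaling (0.0332), with quantile normalization (0.0421), at a minimum mean of 50 (0.0471) and at a pseudocount of 10 (0.0498). The pooled value lost it without the second shlacZ, the third shlacZ or the first sh4 library (0.126, 0.0996 and 0.0675).

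A promoter window, from 250 bases before to 50 bases after a transcription start, was found in RefSeq (GRCh38.p14) for 6 members, with 9 windows in all. CDK2, CCND1, CCND2 and CCNE2 had none. The E2F motif was searched as TTTCCCGC, TTTCGCGC, TTTGCCGC or TTTGGCGC on both strands, and the E-box bound by MITF and MYC was searched as CACGTG, which reads the same on both strands. These motifs were in 3.31% and 7.26% of all 35116 promoter windows, respectively. The CDK4 window and the first CDK6 window hold the E-box letters, and the second CDK6 window holds no match of either kind. Under sh8 the log2 fold changes of CDK4 and CDK6 were -0.39 (not called, limma adjusted p = 0.365) and 0.80, and under sh4 both fell (-0.70 and -0.55). The part of the motif in these levels was not tested. The matched windows of this pair, and that of CDC25A, which fell in the pooled test, are shown with the motif in capitals.
CDC25A, E2F motif from base -44, chr3:48188443-48188472, minus strand: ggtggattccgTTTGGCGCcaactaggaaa
CDK4, E-box from base -216, chr12:57752509-57752538, minus strand: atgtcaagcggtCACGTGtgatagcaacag
CDK4, E-box from base -196, chr12:57752489-57752518, minus strand: atagcaacagatCACGTGgctgccatcgcc
CDK4, E-box from base -101, chr12:57752394-57752423, minus strand: atgggtggcggtCACGTGcccagaacgtcc
CDK6, E-box from base 31, chr7:92836526-92836555, minus strand: cgaggccgcggaCACGTGcggagagccgac
Positions count from 1 at the transcription start. No match of either kind was in the windows of CCNE1, CCNA2 and CCND3, which says only that these letters are not there, and a match is a description of the sequence and not of a bound site.

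Of the cyclin partners of CDK2, CCNE1 and CCNA2 were called lower under sh4, and CCNE2 was not. CCNE1 (cyclin E1; ENSG00000105173, chromosome 19, 29811991 to 29824312, plus strand) had a normalized count of 290.0, 341 and 339 in the controls, 152 and 179 under sh4, and 268 and 217 under sh8. The sh4 libraries lay furthest down, and the sh8 libraries lay between them and the controls. Its log2 fold change was -0.96 under sh4 (SE 0.18, adjusted p = 0.00456), a call lost without the first sh4 library (0.0528), and -0.42 under sh8 (adjusted p = 0.244). CCNA2 (cyclin A2; ENSG00000145386, chromosome 4, 121816444 to 121823883, minus strand) had 1737, 2346 and 2130.5 in the controls, 1187 and 1637 under sh4, and 1562 and 1572 under sh8. Here 3 of the 4 knockdown libraries lay close together and the first sh4 library lay apart below them. Its change on the log2 scale was -0.56 under sh4 (SE 0.17, adjusted p = 0.0382) and -0.39 under sh8 (adjusted p = 0.250). The sh4 value was -0.33 without the first sh4 library, a change past 1.5 times that also ended the call (adjusted p = 0.315), and the call was lost as well without the third or the second shlacZ library or without either sh8 library.

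CCNE2 (cyclin E2; ENSG00000175305, chromosome 8, 94879770 to 94896678, minus strand) had a normalized count of 491, 618 and 489.8 in the controls, 418 and 465 under sh4, and 572 and 417 under sh8. Both sh4 libraries lay under the controls, and the sh8 libraries overlapped both other groups. Its log2 fold change was -0.26 under sh4 (95% interval -0.66 to 0.13) and -0.12 under sh8 (95% interval -0.52 to 0.28), which leaves room for changes of either direction. INTS8, on the opposite strand, shares 1629 bases with its exons, 37.05% of their length, and had a mean normalized count of 1079 over the libraries, above that of CCNE2 itself. The ratio of CCNE1 to CCNE2 was 0.59, 0.55 and 0.69 in the controls, 0.36 and 0.39 under sh4, and 0.47 and 0.52 under sh8. Each knockdown library thus held less cyclin E1 relative to cyclin E2 transcript than each control. Across the members, CDK2, CCNE1, CCNA2 and CDC25A lay under every control in all 4 knockdown libraries (4 of 9), and 11% of all genes did so, while 10.2% lay over every control.

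**Figure D3:**
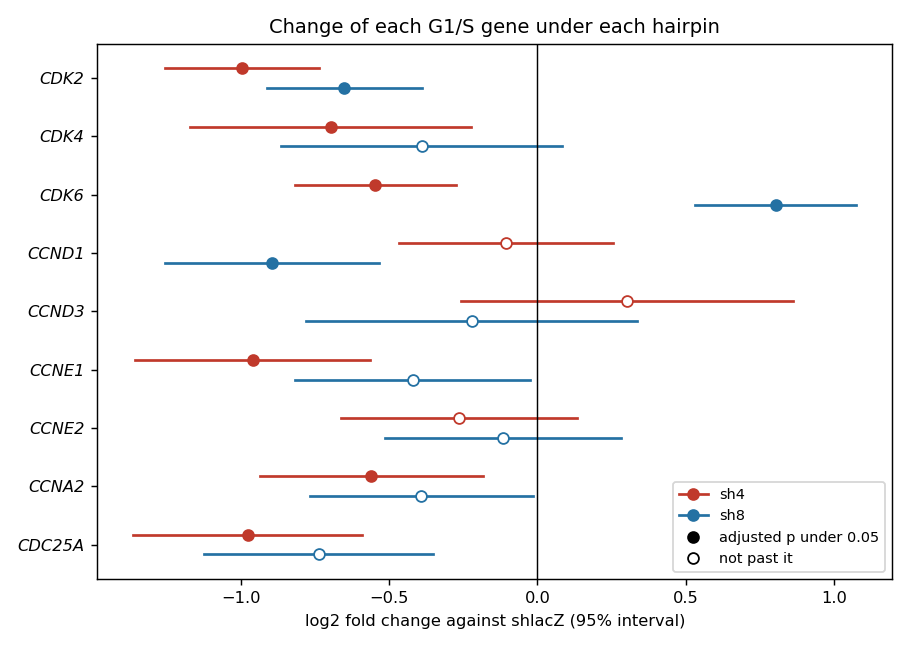
Log2 fold change against shlacZ (horizontal axis) of each of the 9 G1/S genes under sh4 (red) and sh8 (blue), with the 95% interval of the limma fit as a line and a filled point where the adjusted p was under 0.05. CDK2 is filled and below 0 for both hairpins, CDK6 is filled on opposite sides of 0, and the CCND1 point is filled for sh8 only.

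CDK6, a kinase of early G1 (ENSG00000105810; chromosome 7, 92604921 to 92836573, minus strand) had a normalized count of 2514, 2270 and 2025 in the controls, 1568 and 1527 under sh4, and 4062 and 3833 under sh8. No library of one group fell within the range of another. CDK6 fell under sh4 (-0.55 on the log2 scale, SE 0.12, adjusted p = 0.0109) and rose under sh8 (0.80, SE 0.12, adjusted p = 0.00954), to 68.2% and 174% of the control mean. The hairpins differed by -1.35 on the log2 scale, sh4 minus sh8 (SE 0.13, 95% interval -1.65 to -1.05, adjusted p = 0.00113), and this difference was called in 17 of 17 alternatives. With both hairpins pooled the value was 0.13 (adjusted p = 0.851), and -0.11 and -0.08 without the first and the second sh8 library. The sh4 call against the control was lost without either sh4 library (adjusted p = 0.0623 and 0.0764), and the sh8 call without either sh8 library (0.0962 and 0.0864).

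CDK4 (ENSG00000135446; chromosome 12, 57747727 to 57756013, minus strand), the other kinase partner of D-type cyclins, had 2007, 3555 and 2993 in the controls, 1573 and 1858 under sh4, and 1961 and 2282 under sh8. The first control lay at the level of the sh8 libraries. On the log2 scale the change was -0.70 under sh4 (SE 0.21, adjusted p = 0.0401) and -0.39 under sh8 (SE 0.21, adjusted p = 0.365). The sh4 call was lost in 8 of 17 alternatives, among them leaving out the third or the second shlacZ library or any sh4 or sh8 library, and without the first shlacZ library the sh8 value was -0.62 (adjusted p = 0.0221). TSPAN31 overlaps 1369 bases of the CDK4 exons from the opposite strand (44.25%), at a mean normalized count of 212. The ratio of CDK6 to CDK4 was 1.25, 0.64 and 0.68 in the controls, 1.0 and 0.82 under sh4, and 2.07 and 1.68 under sh8, so that both sh8 libraries stood above all others.

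CCND1 (cyclin D1; ENSG00000110092, chromosome 11, 69641156 to 69654474, plus strand) was the abundant D-type cyclin of these cells. Its normalized count was 12243, 13455 and 17050 in the controls, 12731 and 13476 under sh4, and 6718 and 8562 under sh8. The sh4 libraries lay among the controls and the sh8 libraries lay under all others. CCND1 fell under sh8 (-0.90 on the log2 scale, SE 0.16, adjusted p = 0.0195), to 53.6% of the control mean, and its value under sh4 was -0.11 (95% interval -0.47 to 0.25, adjusted p = 0.684), a sign that turned with quantile normalization (0.14). The direct difference, sh4 minus sh8, was 0.79 (SE 0.18, 95% interval 0.39 to 1.18, adjusted p = 0.0271). That call was lost without any one of the 4 knockdown libraries, with an adjusted p from 0.0530 to 0.215, and the sh8 call without either sh8 library or without the third or the second shlacZ library (0.0523 to 0.173). CCND3 (cyclin D3; ENSG00000112576, chromosome 6, 41934934 to 42050357, minus strand) had 362, 634 and 579 in the controls, 547 and 723 under sh4, and 372 and 514 under sh8. Each hairpin overlapped the controls, and both sh4 libraries lay above both sh8 libraries. Its log2 fold change was 0.30 under sh4 (95% interval -0.26 to 0.86) and -0.22 under sh8 (95% interval -0.78 to 0.34).

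Between the hairpins, CDK6 and CCND1 were the members whose levels differed by the direct test (1 lower and 1 higher under sh4 of 9, beside 3.33% and 3.67% of all genes). Without any one of the knockdown libraries only CDK6 was called. CDK2 did not pass it, with a difference of -0.35 (95% interval -0.63 to -0.06, adjusted p = 0.144), and neither did CDC25A, with -0.24 (95% interval -0.66 to 0.18, adjusted p = 0.512), or CCNE1, with -0.54 (95% interval -0.98 to -0.10, adjusted p = 0.134). MITF and PMEL were lower under sh4 than under sh8 (-0.59 and -0.71, adjusted p = 0.0415 and 0.0222), and of the 10 melanocytic markers 7 were lower in this direct comparison. The MITF call was lost without the second shlacZ or any knockdown library and with total scaling or quantile normalization, and the PMEL call without the second sh4 or either sh8 library. Under sh4 against shlacZ 7 of the 10 fell as well, with a list median of -1.12, where 11.9% of all genes were called lower. The markers that did not fall were TYR, PAX3 and SLC45A2, with means of 111%, 107% and 101% of the control mean under sh4. Under sh8 their means were 117%, 140% and 82.0% of it, and both PAX3 libraries lay over every control. In all 4 knockdown libraries 6 of the 10 lay under every control, and 11% of all genes did so. The count between hairpins was 2 without the second sh4 or either sh8 library, and the count under sh4 was 6 or 7 with any library left out. For both hairpins together the count was 1 of 10 (PMEL). Under sh8 it was 0 of 10 by limma and by limma-voom, with 6 of 10 at an unadjusted p under 0.05, and 3 without the first shlacZ library or 2 without either sh4 library. The summed normalized count of the markers ran from 144295 to 158045 in the controls, from 62363 to 68493 under sh4 and from 110788 to 113711 under sh8. Its part in the member levels was not tested.

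Levels of different genes were set side by side as normalized count per kilobase of annotated exon. The exons of all annotated transcripts were joined for this length, 23 transcripts for CCND3 and 1 for CCNA2. The order of the genes thus depends on the annotation as well as on their levels, and the transcripts in use were not measured. On this scale CDK2 stood highest in the controls at 3503 ± 239 (SD, n = 3). CCND1 followed at 2993 ± 525, and the ranges of this pair overlapped. CDK4 (922 ± 253) and CCNA2 (754 ± 112) came next and also overlapped each other. CDC25A (331 ± 62.7) and CDK6 (185 ± 20.0) stood apart from their neighbours. CCNE1 (131 ± 11.8) and CCNE2 (121 ± 16.7) overlapped, and CCND3 (91.1 ± 24.9) was lowest. PMEL, for comparison, stood at 9986 ± 303. On this scale CDK6 was below CDC25A in the controls and above it under sh8, at 323 ± 13.2 against 197 ± 28.0 (SD, n = 2).

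The genes that control these kinases were followed as a list. Of 30 listed G1/S regulators 27 were tested (CDK3 lay under the minimum mean, and CDKN1A and CCNA1 were not analysed here). CDKN1C, the kinase inhibitor p57, was the single one called for both hairpins together (1 of 27, higher). Of all genes, 2.55% were called higher and 2.06% lower in that comparison. In all 4 knockdown libraries 2 of the 27 (CDKN1C and CDKN2C) lay over every control and 4 lay under, as did 10.2% and 11% of all genes. CDKN1C had a normalized count of 26.8, 10.5 and 12.2 in the controls, 90.3 and 54.5 under sh4, and 51.4 and 56.4 under sh8. These few reads limit the precision. The fitted pooled change was 1.95 on the log2 scale (SE 0.37, adjusted p = 0.0233), and the call was lost without the second shlacZ, the third shlacZ or the first sh4 library. Under sh4 8 of 27 regulators fell and 3 rose, where 11.9% and 10.5% of all genes did, with a list median of -0.22. The 3 that rose were CDKN1C, the inhibitor gene CDKN2B (p15) and RB1, the retinoblastoma gene. Among those that fell, MYC (-1.51), SKP2 (-1.10), the ubiquitin ligase subunit that marks p27 for degradation, and E2F3 (-0.82) were also lower under sh4 than under sh8, and RB1 was higher, by the direct test. The difference was called in 17 of 17 alternatives for MYC, whereas it was lost for SKP2 without the second sh4 or the first sh8 library, for E2F3 without any knockdown library, and for RB1 without the second sh4 or either sh8 library. These genes were named after their values had been seen. Under sh8 none of the 27 passed by limma or by limma-voom, with 5 of 27 at an unadjusted p under 0.05 and a median of -0.15. Without the first shlacZ library 3 passed, and under sh4 the count of 11 fell to 6 without the third shlacZ or either sh4 library.

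The replication genes that E2F factors switch on after the G1/S kinases act were all measured (20 of 20). Their median log2 fold change was -0.41 for both hairpins together, -0.46 under sh4 and -0.36 under sh8, and all 20 had a value below 0 in each of the 3 comparisons, as had 7804, 7797 and 7889 of all 15420 genes. For both hairpins together MCM4, a subunit of the replicative helicase, fell from 5228, 6125 and 5918 to 3646 and 3919 under sh4 and 4559 and 3908 under sh8 (log2 fold change -0.52, adjusted p = 0.0402). CDC6, which loads that helicase, fell from 2089, 2568 and 2269 to 1591 and 1767 under sh4 and 1628 and 1262 under sh8 (log2 fold change -0.57, adjusted p = 0.0493). CDC6 was called in 4 of 17 alternatives. Under sh4 9 of 20 fell, and under sh8 only CDC6 did, where 11.9% and 1.54% of all genes were called lower. The direct test of sh4 against sh8 called 0 of 20 by limma, by limma-voom and at an unadjusted p under 0.05. Of the 20, 11 lay under every control in all 4 knockdown libraries, and 11% of all genes did so. The first shlacZ library was the lowest control for the list, with a summed normalized count of 43215 against 52710 and 48352 in the others, and 34349 to 38975 in the knockdown libraries. Without it 4, 16 and 9 of 20 were called for both hairpins, sh4 and sh8, and without the third or the second shlacZ library 0, 2 and 0. The pooled count was also 0 without either sh4 library or the second sh8 library, the sh4 count was 0 without the first sh4 library and 2 without the second, and CDC6 was lost under sh8 without any one of the 4 knockdown libraries.

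**Figure D4:**
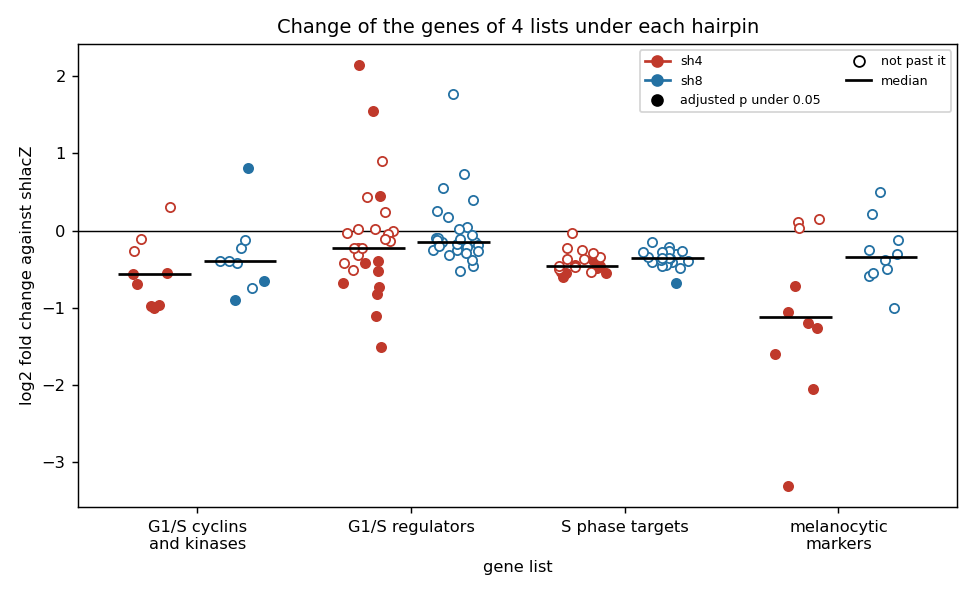
Log2 fold change against shlacZ (vertical axis) of the genes of 4 lists under sh4 (red) and sh8 (blue), 1 point a gene, filled where the adjusted p was under 0.05, with the list median as a black line. The S phase targets form a narrow band below 0 under both hairpins, and the melanocytic markers reach lower values under sh4 than under sh8.

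Of 7 housekeeping genes, TBP, a subunit of the basal transcription machinery, fell under sh4 (-0.51, adjusted p = 0.0207), and the list median was -0.17. HPRT1, SDHA and PPIA, with the next lowest adjusted p-values, had log2 fold changes of -0.20, -0.17 and -0.20. Values below 0 were found for 7 of 7 for both hairpins together, 7 under sh4 and 6 under sh8, beside 7804, 7797 and 7889 of all 15420 genes. Under sh8 the list median was -0.13 and the lowest value was -0.47. The TBP call was lost without the third shlacZ library or either sh4 library. For both hairpins together and for sh8 the count was 0 of 7 by limma and by limma-voom, with 1 and 2 of 7 at an unadjusted p under 0.05, and under sh8 it was 1 without the first shlacZ library.

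Among 12049 other genes with a mean of at least 50, the pattern over the 7 libraries most like that of CDK2 was found for STOX2, PRELID2, NLGN1, ENAH and CDIN1. The measure was the root mean square difference of log2 values centred on each gene's mean, and it was 0.06, 0.07, 0.09, 0.09 and 0.09 for these genes. PMEL ranked 128 by the same measure (0.18), CDC25A ranked 417 (0.23), MITF ranked 459 (0.23) and CCNA2 ranked 1485 (0.31). CDK4 ranked 2123 (0.33). Of these members CDC25A was the nearest to CDK2, and the neighbouring gene PMEL was nearer than each of them. The ranks of the other members are not reported here.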

How the data were processed

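RNA was sequenced from 7 libraries of 501Mel cells. Ribosomal RNA was depleted and stranded libraries were made. Per the study's methods and the submitters' processing notes, the authors used Cutadapt for adapter trimming, STAR for alignment to hg38 and Salmon for quantification, and the authors gave the count matrix to DESeq2 for their own tests. The tool behind the normalization, versions, the annotation release and the use of strand in counting are not given in the sources used here, so overlapping genes on opposite strands cannot be told apart. The authors deposited normalized counts, which by their values are read counts divided by 1 size factor per library. All values (100%, tolerance 0.001 reads) were whole multiples of 1 read, and depth came from these recovered reads. Size factors scale away a change shared by most transcripts.

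Tests were made with limma 3.58.1 (R 4.3.3) with a variance trend on log2(normalized count + 1), for 15420 genes with a mean of at least 10, with calls made where the Benjamini-Hochberg adjusted p over all of them was under 0.05. Fold changes are on that scale. Both hairpins were compared with shlacZ in a fit with 2 levels, and single hairpins in a fit with 3 groups sharing 1 spread. The fit was tested on simulated libraries that varied independently, with a single dispersion for all genes and the same changes under both hairpins. Such data hold no control that stands apart and no difference between hairpins, so the simulation does not cover these features. GENCODE release 44 on hg38 gave positions and overlaps. Members and lists (G1/S regulators, S phase targets, CDK2 locus, melanocytic and other cell markers, housekeeping) were chosen with earlier results of these data known. Genes named were the members, GRASLND, PMEL, MITF, the locus genes, the genes of each list called for both hairpins together or else the 4 with the lowest adjusted p under sh4, and the 5 with the profile nearest to CDK2. TYR, PAX3, SLC45A2 and CDKN2C were added after their values had been seen. Alternatives covered pseudocount, minimum mean, scaling, variance trend, replicate block, limma-voom on recovered reads, which libraries entered the fit, and each library omitted in turn. One gene of the housekeeping list is not reported here.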

Additional observations from a re-analysis of the deposited data

Results flagged for a closer look

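The direct test of sh4 against sh8 found a difference for CDK6, with a log2 difference of -1.35 (sh4 minus sh8), and for CCND1, with 0.79. It also found one for PMEL, the neighbour of CDK2, with -0.71, and for the lineage factor MITF, with -0.59. For CCNA2 the first sh4 library stood apart from the other 3 knockdown libraries (1187 against 1562 to 1637), with a gap of 0.854 of the range of the 4 libraries on the log2 scale, above the critical value of 0.829 for 4 samples. Such a gap is expected by chance in about 1 of 20 groups of 4 samples of the same kind, and 9 members were examined. Here the 4 libraries came from both hairpins, so that share may not hold.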

How the results depend on the processing

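Of 612 comparisons of a member's log2 fold change with an alternative, 545 kept direction and side of the threshold, 45 lost a call, 11 gained one and 11 changed sign. Without the variance trend the count of members called was 0 for both hairpins together, 4 for sh4, 0 for sh8 and 1 for sh4 against sh8. With the added demand for an absolute log2 fold change over 1 it was 0, 0, 0 and 1. With the mean of both hairpins taken from the fit with 3 groups it was 5 for both together. Leaving out each library in turn gave 0 to 3 for both hairpins, 2 to 6 for sh4, 0 to 5 for sh8 and 1 to 2 for sh4 against sh8.

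The correlations of same-numbered deviations were 0.337, 0.117, 0.213, -0.078, 0.034 and 0.034. The second sh4 library correlated with the third shlacZ library (0.22) about as with the second (0.213). Deviations in a group of 2 libraries mirror each other, so these values are not independent. They cannot decide whether the replicate numbers pair the libraries. With the replicate block the pooled counts were 0 for the members, 0 for the G1/S regulators, 0 for the S phase targets, 0 for the CDK2 locus and 0 for the melanocytic markers, the G1/S regulators called under sh8 were 1, the melanocytic markers called under sh8 were 1, the housekeeping genes called under sh4 were 0, and the CCND1 log2 fold change under sh4 was 0.029. The block changed no other of these counts by over 1.5 times.

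For the pooled comparison, the G1/S regulators called were 0 at a minimum mean of 50, 2 with total scaling, 0 without the trend and 9 from the fit with 3 groups, and 0 to 2 with libraries left out. The S phase targets called were 1 without a minimum mean, 1 with total scaling, 1 with quantile normalization, 1 with limma-voom, 0 without the trend and 10 from the fit with 3 groups, and 0 to 4 with libraries left out. The CDK2 locus gave 0 with quantile normalization, 0 without the trend, 2 from the fit with 3 groups and 0 to 2 with libraries left out, and the housekeeping genes gave 1 from the fit with 3 groups. Under sh4, the G1/S regulators gave 7 without the trend and 6 to 14 with libraries left out, the S phase targets 5 with total scaling, 2 without the trend and 0 to 16 with libraries left out, the locus 1 to 5 and the housekeeping genes 0 to 1. Under sh8, the regulators gave 1 with quantile normalization and 0 to 3 with libraries left out, the S phase targets 2 with total scaling, 0 without the trend, 0 from the fit with only sh8 and shlacZ and 0 to 9 with libraries left out, the locus 0 to 3 and the housekeeping genes 0 to 1. The melanocytic markers called for both hairpins were 0 with quantile normalization, 0 without the trend, 7 from the fit with 3 groups and 0 to 4 with libraries left out. Under sh8 they were 1 at a pseudocount of 10, 1 at a minimum mean of 50, 1 with total scaling, 2 with quantile normalization, 2 from the fit with only sh8 and shlacZ and 0 to 3 with libraries left out. Between hairpins they were 2 without the trend and 2 to 8 with libraries left out.

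Signs of members that did not pass the test changed in 7 comparisons. With libraries left out in turn, the log2 fold change for both hairpins ran from -0.11 to 0.36 for CDK6 (below 0 without either sh8 library) and from -0.21 to 0.20 for CCND3 (below 0 without the first shlacZ or the second sh4 library). Under sh8 it ran from -0.47 to 0.011 for CCND3 (highest without the first sh8 library) and from -0.35 to 0.11 for CCNE2 (highest without the second). Between hairpins it ran from -0.38 to 0.080 for CCNE2 (highest without the first sh8 library) and from -0.40 to 0.063 for CCNA2 (highest without the first sh4 library). For CCND1 under sh4 it ran from -0.21 to 0.029 (highest without the third shlacZ library), and it was 0.14 with quantile normalization. No sign change concerned a called value. The cause was not tested. With 2 libraries a hairpin, the spread rests on few libraries, and where one was left out the lone library was assumed to vary like the others. Depth limits the lowest members most, and CCNE1 had as few as 135 reads in a library. List genes were followed through the alternatives as single genes only where they were called.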
